A study of Mus musculus with 11 samples.

Results

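The genes of the cytosolic ribosomal proteins were followed in the tibialis anterior of mice, a fast muscle at the front of the shin, after denervation and in muscle fibres lacking the transcription factor Runx1. They were taken as the genes whose single symbol in the probe annotation has the form Rpl, Rps or Rplp with a number, without pseudogenes and ribosomal S6 kinases. This gave 48 of the 18194 genes with a single symbol, on 103 of 45101 probe sets, and each gene was represented by its probe set with the highest mean signal. Total RNA had been measured on 11 Affymetrix arrays in 4 groups: 3 arrays of denervated mutant muscle, 2 of innervated mutant muscle, 3 of denervated control muscle and 3 of innervated control muscle. Control mice were Runx1 f/-, with a floxed and a null allele, so all 4 groups carried 1 null allele. Mutant mice were Runx1 f/- and carried MCK::cre, a transgene that expresses Cre recombinase from the promoter of muscle creatine kinase, and so in muscle fibres rather than in the other cells of the tissue. Denervation lasted 3 days by the titles, while a treatment note of denervated control 3 gives 5 days. The age of the mice, and whether the arrays of a group came from separate animals, are not given in the sources used here, so the p-values measure the spread between these samples, which may be technical.

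A ribosome joins a large subunit, which forms peptide bonds, to a small subunit, which reads the mRNA. Each subunit holds ribosomal RNA and a set of ribosomal proteins that cells make in matched amounts, and the mRNAs of these proteins begin with a run of pyrimidines through which mTORC1 and its target LARP1 control their translation. Skeletal muscle and heart also express a paralog of the large subunit protein Rpl3 called Rpl3l, which can take its place in the ribosome.

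Promoter sequences from RefSeq (GRCm38.p6) were matched by symbol for 42 of the 48 genes. Each covers 250 bases before to 50 bases after an annotated start. A run of at least 8 pyrimidines (C or T, on the transcribed strand) lying within 5 bases of the start was found in 18 of the 42 genes, which is 42.9%, against 11% of all 27025 genes in the table. On both strands, CCGGAA (the core of an ETS factor site) was found in 64.3% of the ribosomal protein genes and 16.7% of all genes, GGGCGG in 57.1% and 38.2%, TATAAA in 14.3% and 15.7%, and CANNTG (an E-box, the letters bound by basic helix-loop-helix factors) in 52.4% and 75%. The promoter of Rpl3l held none of the first 4 and had 4 matches to CANNTG. These matches describe letters only. The windows below run from 60 bases before the start to 20 bases from it, and are shown for Rpl3l, whose signal fell furthest after denervation, for 4 genes whose signals rose in both genotypes, and for Rpl7a and Rpl35, which carry long pyrimidine runs at the start. Capitals mark CANNTG in Rpl3l and the pyrimidine run in Rps6, Rpl7a and Rpl35. Rps25, Rpl12 and Rps19 have no run of that length within 5 bases of the start, so no letters are capitals there. For Rpl3l and Rps19, which have several annotated starts, the first is shown.
Rpl3l: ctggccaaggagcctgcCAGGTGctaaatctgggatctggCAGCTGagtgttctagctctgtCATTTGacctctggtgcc
Rps25: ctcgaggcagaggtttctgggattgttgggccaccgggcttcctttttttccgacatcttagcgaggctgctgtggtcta
Rps6: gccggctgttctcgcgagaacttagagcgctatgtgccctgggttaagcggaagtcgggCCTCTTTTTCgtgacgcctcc
Rpl12: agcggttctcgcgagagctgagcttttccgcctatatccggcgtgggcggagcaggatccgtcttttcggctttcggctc
Rps19: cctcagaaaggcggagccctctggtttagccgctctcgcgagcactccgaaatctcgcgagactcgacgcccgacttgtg
Rpl7a: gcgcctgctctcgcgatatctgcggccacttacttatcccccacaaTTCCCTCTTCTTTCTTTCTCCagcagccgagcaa
Rpl35: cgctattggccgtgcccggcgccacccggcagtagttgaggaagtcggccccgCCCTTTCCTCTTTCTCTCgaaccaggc
On GRCm38.p6 the windows lie at chr17:24727766-24727845 (plus strand) for Rpl3l, chr9:44407654-44407733 (plus) for Rps25, chr4:86857348-86857427 (minus) for Rps6 and chr2:32961652-32961731 (plus) for Rpl12. Those of Rps19, Rpl7a and Rpl35 lie at chr7:24884532-24884611 (plus), chr2:26910747-26910826 (plus) and chr2:39005112-39005191 (minus). The runs are 10 bases long in Rps6, 21 in Rpl7a and 18 in Rpl35.

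Of the 48 genes, 46 passed the filter on low signals, which asks for 2 or more arrays with a signal above that array's median: 20 genes of the large subunit, 19 of the small subunit, the stalk genes Rplp0 and Rplp2, and 5 paralogs. Rpl39l, a paralog of Rpl39 known from testis, and Rps16 did not pass, each with 0 of 11 arrays above the median. Rpl39l gave 254 to 443 signal units in denervated mutant, 341 and 542 in innervated mutant, 252 to 401 in denervated control and 234 to 367 in innervated control muscle. The single annotated probe set of Rps16, a small subunit protein, gave 6.06 to 64.7 over all arrays. A further 28 ribosomal protein names, among them Rpl3, Rpl10, Rplp1 and Rpl36a, stand only on probe sets with several gene symbols and are not analysed here. Many of the remaining probe sets may also bind transcripts of related genes or processed pseudogenes: 21 of the 46 genes had a probe set whose identifier marks it as unique to a gene.

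Runx1 signals averaged 21346 ± 1593 in denervated mutant (SD, n = 3), 342 ± 75.5 in innervated mutant (n = 2), 24583 ± 1216 in denervated control (n = 3) and 401 ± 192 in innervated control muscle (n = 3). The position of this probe set relative to the deleted part is not known here, so it does not check the deletion. The muscle fibre markers Acta1, Ckm, Myh4, Tnnt3, Mylpf and Pvalb were above the filter and their summed signal lay between 885871 and 1626676 on all 11 arrays. Median signals per array ran from 442.5 to 604.6, and with 2 or 3 arrays a group the precision is limited by their number. One array stood apart in the ribosomal protein genes. Among 35 of them with a mean signal over 40000 (Rpl3l left out), innervated control 2 was the lowest of its group in 35 and the lowest of all 11 arrays in 32, with a median deviation from each gene's mean of -0.76 on the log2 scale. The other arrays lay between -0.35, in innervated mutant 1, and 0.30, in denervated mutant 3. Innervated control 2 also had the lowest 3'-to-5' log2 ratio of the spiked RNAs, 0.37, followed by 0.42 and 0.51 in the innervated mutant arrays and 0.54 to 1.26 in the others. Its part in the results was not tested beyond leaving this array out and using the ratio as a covariate, which are given below.

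**Figure D1:**
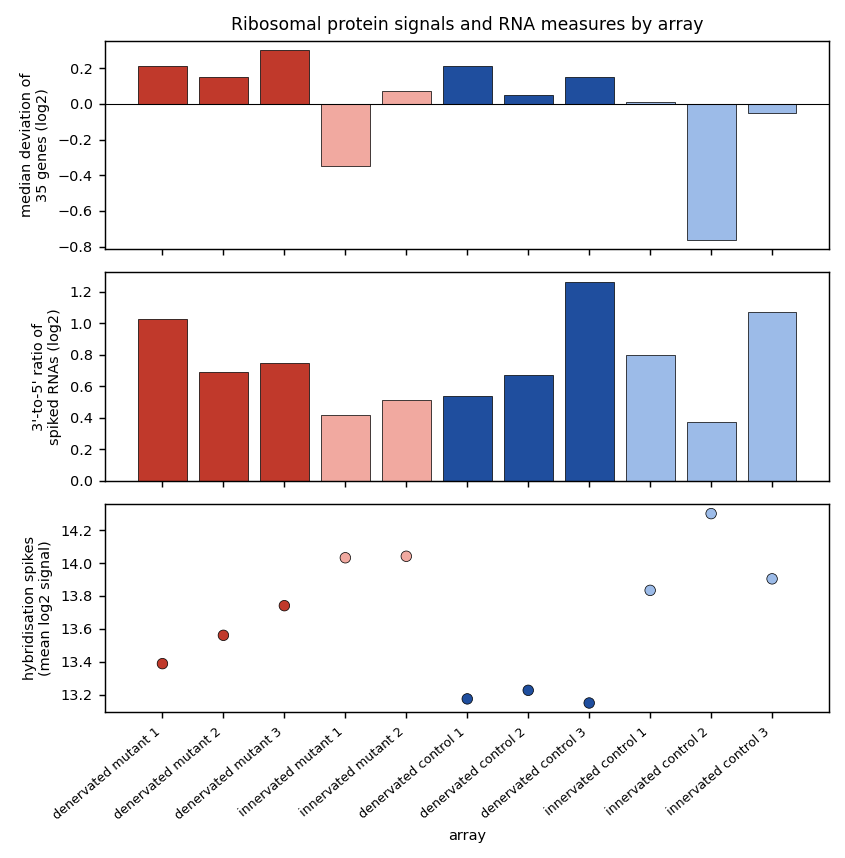
Upper panel, the median deviation of 35 ribosomal protein genes from each gene's mean over 11 arrays (log2); middle, the mean 3'-to-5' log2 ratio of 4 spiked RNAs; lower, the mean log2 signal of 18 hybridisation spike probe sets. Each bar or point is 1 array, coloured by group; innervated control 2 is lowest in the upper panels, at -0.76 and 0.37, and highest in the lower, at 14.3.

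The paralog Rpl3l gave the lowest denervation change among the 46 genes in both genotypes. It had 23870, 27485 and 27196 signal units in denervated mutant muscle, against 102263 and 117397 in innervated mutant muscle. It had 20963, 20966 and 25881 in denervated control muscle, against 121755, 97340 and 110731 in innervated control muscle. Every denervated array lay far below every innervated array of either genotype, and the arrays of a group lay close together. The signal was 4.19-fold lower in mutant muscle after denervation, a log2 change of -2.07 ± 0.15 (SE, limma adjusted p = 8.45e-07). In control muscle it was 4.87-fold lower, a log2 change of -2.28 ± 0.13 (limma adjusted p = 9.22e-08). The fall passed the test under all alternatives run, with log2 changes between -2.17 and -1.59 in mutant muscle and between -2.38 and -1.45 in control muscle. In RNA of whole muscle, fewer fibres and less of an mRNA per fibre cannot be told apart. All 6 muscle fibre markers fell in mutant muscle, by log2 changes of -0.60 (Mylpf) to -0.52 (Myh4), and 4 of the 6 fell in control muscle, where Mylpf changed by -0.52 and Acta1, which did not pass, by -0.34.

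The other 45 tested genes moved the other way as a group, by less than a log2 unit in most. Over all 46 genes the median log2 change after denervation was 0.40 in mutant muscle, against -0.09 over all tested probe sets, and 39 changes were positive. In control muscle the median was 0.39, against -0.02 over all tested probe sets, and 37 were positive. The medians were positive under all alternatives run, between 0.18 and 0.88 in mutant and between 0.16 and 1.21 in control muscle. Few single genes passed the test. In mutant muscle 6 of 46 genes rose (13%) and Rpl3l fell, where 13.1% of all tested probe sets, and 16.7% of genes by their brightest probe set, were called higher and 13.3% of probe sets were called lower. In control muscle 10 of 46 rose (21.7%) and Rpl3l fell, against 14.9% of probe sets and 18.1% of genes called higher and 14.4% of probe sets called lower. By the brightest probe set of each gene in this fit, the share of members called higher was below that of all genes in mutant muscle and slightly above it in control muscle, and this reading depended on the setting. Over all 93 tested probe sets of the members, 23.7% were called higher in mutant and 29% in control muscle, above the 13.1% and 14.9% of all tested probe sets. This differed between classes of signal. Of 59 member probe sets with a mean signal over 40000, 7 were called higher in mutant and 12 in control muscle. Of all tested probe sets that bright, 16% and 18.7% were. With quantile normalization 27 of 46 genes rose in mutant muscle (58.7%, against 17.6% of all genes) and 32 of 46 in control muscle (69.6%, against 18.2%).

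**Figure D2:**
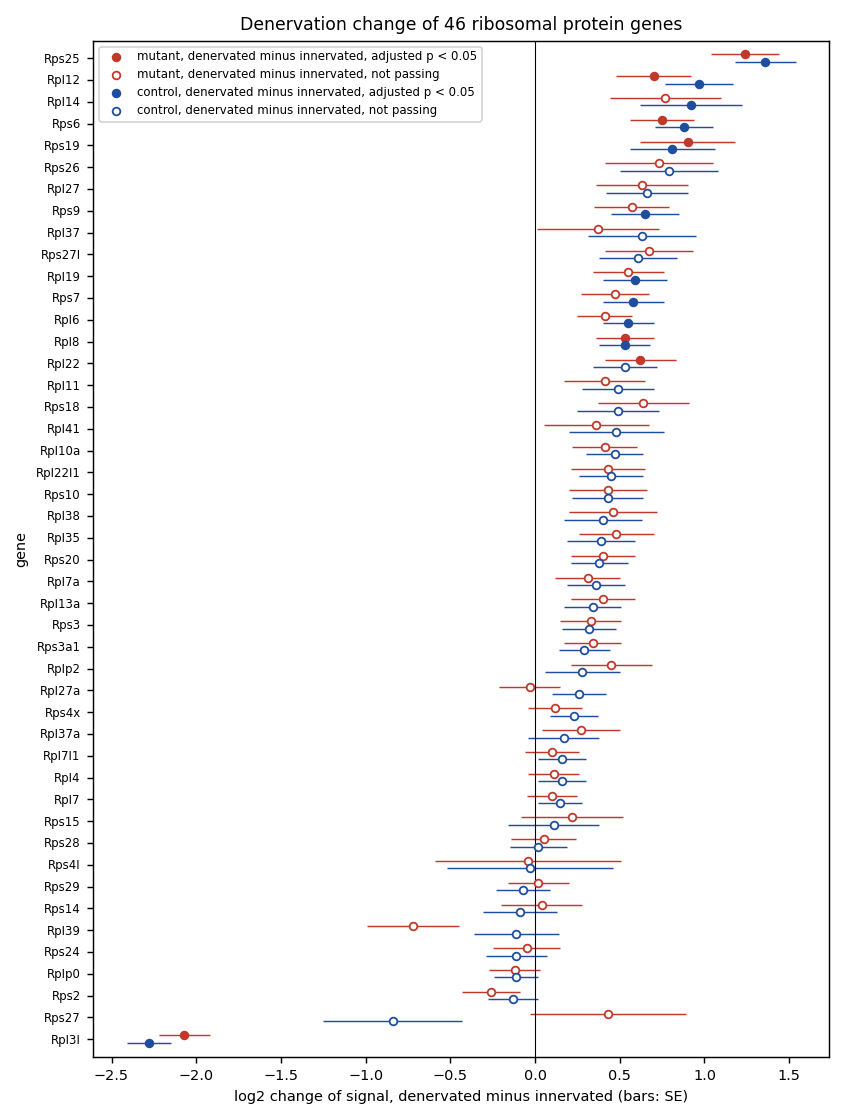
Log2 change of signal, denervated minus innervated, for 46 ribosomal protein genes (horizontal axis; bars are the standard error of the fit), in mutant (red) and control (blue) muscle; filled points passed adjusted p under 0.05. Rpl3l stands alone at -2.07 and -2.28, and most other genes lie between 0 and 1 in both genotypes.

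These counts moved with single arrays, while the share of all genes called higher moved less. Without innervated control 2, the array that stood apart, the control comparison gave 6 higher (13%, against 17.2% of all genes) and 1 lower and a median of 0.16; Rpl12, Rpl6, Rpl8, Rps25, Rps6 and Rps9 remained. The same array entered the estimate of the spread, and without it the mutant comparison gave 23 higher (50%, against 19.6% of all genes) and 2 lower, with the median still 0.40. Without innervated mutant 1 the mutant comparison gave 2 higher (4.35%, against 12.3%) and 2 lower and a median of 0.18. Leaving out denervated control 3, the array with the 5-day note, left 5 higher (10.9%, against 15.4% of all genes) and 1 lower in control muscle, and leaving out denervated control 1 left 4 higher (8.7%, against 15%) and 1 lower. Without innervated control 1 the control count was 15 higher (32.6%, against 16.1%) and 2 lower, and without innervated control 3 it was 16 higher (34.8%, against 16.6%) and 1 lower. Leaving out a denervated mutant array left 2, 2 and 3 genes higher in mutant muscle for arrays 1, 2 and 3, where 13.3%, 12.9% and 12.8% of all genes were called higher. The labels do not say that equal replicate numbers pair the control samples. With the number as a block in a fit of the 6 control arrays, 18 genes rose (39.1%, against 18.8% of all genes) and 1 fell. With the 3'-to-5' ratio as a covariate, chosen after the data were seen, 2 rose (4.35%, against 15.7% of all genes) and 2 fell in mutant muscle, with a median of 0.22, and 16 rose (34.8%, against 19.8%) and 1 fell in control muscle, with a median of 0.34.

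In the large subunit 3 of 20 genes rose in mutant muscle and 5 of 20 in control muscle, with median log2 changes of 0.41 and 0.48. The shares called higher were 15% and 25%, where 16.7% and 18.1% of all genes were. Rpl12, which sits at the base of the stalk, gave 1588, 1740 and 1264 signal units in denervated mutant muscle, against 1079 and 800 in innervated mutant muscle. It gave 1519, 1912 and 1896 in denervated control muscle, against 801, 1005 and 877 in innervated control muscle. The denervated arrays lay above the innervated arrays in both genotypes without overlap, with log2 changes of 0.70 ± 0.22 in mutant (limma adjusted p = 0.0335) and 0.97 ± 0.20 in control muscle (adjusted p = 0.00225). The control call held under all alternatives run and the mutant call was lost in 5 of 23. Rpl8, a protein near the peptidyl transferase centre, gave 73458, 73049 and 81336 in denervated mutant muscle, against 48634 and 56992 in innervated mutant muscle. Its signals were 74144, 70499 and 72022 in denervated control muscle, against 57482, 38114 and 57085 in innervated control muscle. Its groups did not overlap in either genotype, and the log2 change was 0.53 ± 0.17 in mutant (adjusted p = 0.0387) and 0.53 ± 0.15 in control muscle (adjusted p = 0.0198). The mutant call of Rpl8 was lost in 11 of 22 alternatives, among them leaving out any one mutant array, and the control call in 2 of 23.

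By the brightest probe set, Rpl14, Rpl19 and Rpl6 passed only in control muscle and Rpl22 passed only in mutant muscle. None of these differences between genotypes was itself past the test. Rpl14 had log2 changes of 0.77 ± 0.33 in mutant and 0.92 ± 0.30 in control muscle, Rpl19 0.55 ± 0.21 and 0.59 ± 0.19, and Rpl6 0.41 ± 0.16 and 0.55 ± 0.15. Their interaction terms, the change in mutant minus that in control, were -0.15, -0.04 and -0.15. The control calls were lost in 7 of 24, 6 of 24 and 1 of 23 alternatives. Rpl22, whose loss in mice spares most tissues but impairs T-cell development, gave 89536, 86653 and 94173 signal units in denervated mutant muscle, against 48558 and 70870 in innervated mutant muscle. In denervated control muscle it gave 79191, 84295 and 84826, against 69755, 40718 and 66239 in innervated control muscle. All denervated arrays were above all innervated ones, with log2 changes of 0.62 ± 0.21 in mutant (limma adjusted p = 0.049) and 0.53 ± 0.19 in control muscle (adjusted p = 0.0537), on either side of the threshold. The mutant call was lost in 12 of 23 alternatives. Other probe sets of Rpl22 passed in both genotypes, with changes of 1.23 ± 0.29 and 0.62 ± 0.16 in mutant muscle. In control muscle these probe sets changed by 0.99 ± 0.26 and 0.75 ± 0.15. By their brightest probe sets, the remaining 14 large subunit genes did not pass in either genotype. These changes ranged from -0.72 (Rpl39) to 0.63 (Rpl27) in mutant muscle and from -0.11 (Rpl39) to 0.66 (Rpl27) in control muscle. Among these genes, dimmer probe sets of Rpl13a and Rpl27 passed in both genotypes.

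In the small subunit 3 of 19 genes rose in mutant muscle and 5 of 19 in control muscle, with medians of 0.40 and 0.32. The shares called higher were 15.8% and 26.3%, where 16.7% and 18.1% of all genes were. By the brightest probe set of each gene, the highest change of the 46 genes was that of Rps25. Some dimmer probe sets of other genes changed more, such as that of Rpl13a given below. Rps25 lies in the head of the subunit and is needed by some viral internal ribosome entry sites. It gave 2022, 2460 and 2167 signal units in denervated mutant muscle, against 899 and 959 in innervated mutant muscle. In denervated control muscle it gave 2619, 2176 and 2080, against 991, 712 and 966 in innervated control muscle. Each denervated array lay above each innervated one, by more than the spread within any group. The signal was 2.36-fold higher in mutant muscle (log2 change 1.24 ± 0.20, limma adjusted p = 0.000639) and 2.56-fold higher in control muscle (1.36 ± 0.18, adjusted p = 9.58e-05), and both calls held under all alternatives run.

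Rps6, the ribosomal protein that S6 kinases phosphorylate downstream of mTORC1, gave 4568, 4559 and 5099 signal units in denervated mutant muscle, against 2739 and 2876 in innervated mutant muscle. It gave 5492, 4525 and 3486 in denervated control muscle, against 2681, 2494 and 2081 in innervated control muscle. The groups did not overlap in either genotype. The log2 change was 0.75 ± 0.19 in mutant (limma adjusted p = 0.0125) and 0.88 ± 0.17 in control muscle (adjusted p = 0.00199), and without either innervated mutant array the mutant call was lost. Rps19, required for the maturation of the small subunit RNA and mutated in human Diamond-Blackfan anaemia, gave 60913, 52227 and 56983 in denervated mutant muscle, against 25475 and 35947 in innervated mutant muscle. It gave 51135, 41307 and 57958 in denervated control muscle, against 33690, 17425 and 38838 in innervated control muscle. Denervated arrays were again above innervated ones without overlap, and innervated control 2 was the lowest array. The log2 change was 0.90 ± 0.28 in mutant (adjusted p = 0.0307) and 0.81 ± 0.25 in control muscle (adjusted p = 0.0273). The control call was lost in 5 of 23 alternatives, among them without innervated control 2, and the mutant call in 7 of 22, among them without innervated mutant 1.

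**Figure D3:**
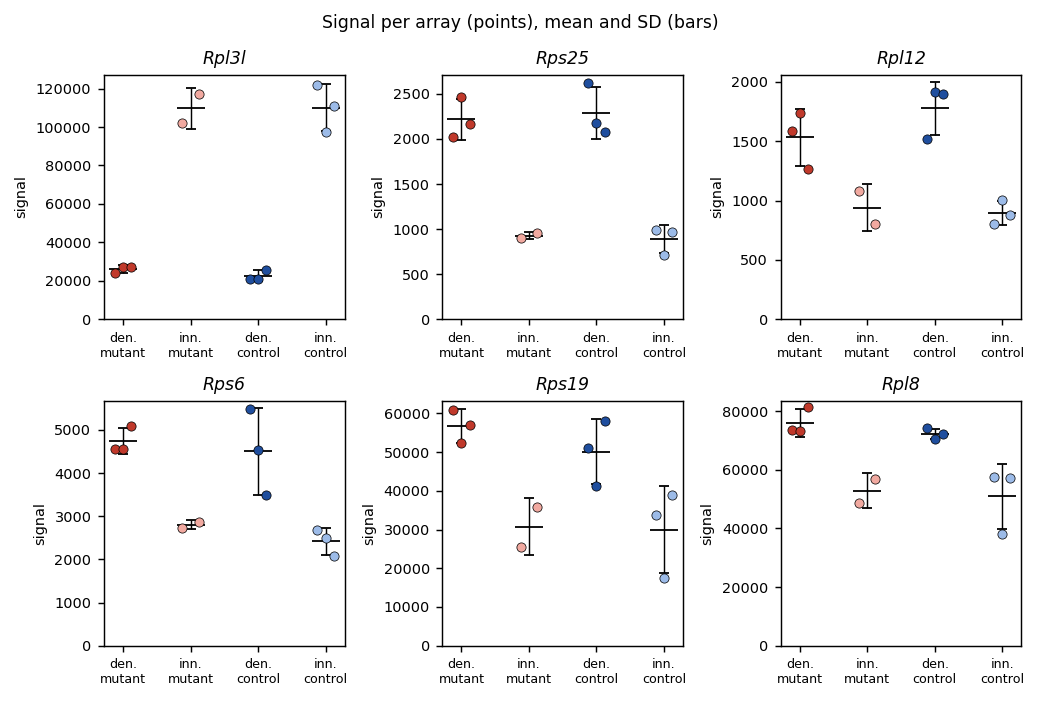
Signal per array (points), with the mean and SD of each group (bars), for Rpl3l, Rps25, Rpl12, Rps6, Rps19 and Rpl8; each axis starts at 0 and has its own scale. Rpl3l was lower and the other 5 genes were higher on every denervated array (den.) than on every innervated array (inn.) of the same genotype.

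By their brightest probe sets, the small subunit genes Rps7 and Rps9 passed only in control muscle. Their log2 changes were 0.58 ± 0.18 and 0.65 ± 0.20 there, and 0.47 ± 0.20 and 0.57 ± 0.22 in mutant muscle. Another probe set of Rps7 passed only in mutant muscle, at 0.58 ± 0.19, against 0.44 ± 0.17 in control muscle. The control calls of Rps7 and Rps9 were lost in 7 of 23 and 5 of 24 alternatives. By their brightest probe sets, 14 small subunit genes passed in neither genotype. These changes ranged from -0.26 (Rps2) to 0.73 (Rps26) in mutant muscle and from -0.84 (Rps27) to 0.79 (Rps26) in control muscle. Among these genes, dimmer probe sets of Rps3, Rps10 and Rps18 passed in both genotypes. Rps26 gave 75342, 64820 and 73431 signal units in denervated mutant muscle, against 33147 and 55306 in innervated mutant muscle. It gave 70475, 64753 and 67392 in denervated control muscle, against 53836, 21551 and 51106 in innervated control muscle. Its groups did not overlap, while innervated control 2 lay far below the other innervated control arrays, and the limma adjusted p-values were 0.111 and 0.0537. Over all 46 genes, the denervated arrays lay above the innervated ones without overlap in 27 genes in mutant muscle and 21 in control muscle, where 25.8% and 20.3% of all tested probe sets did so.

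The stalk genes did not pass in either genotype. Rplp0, the stalk's base, had log2 changes of -0.12 ± 0.15 in mutant and -0.11 ± 0.13 in control muscle. Rplp2, one of the acidic proteins that recruit elongation factors, changed by 0.45 ± 0.24 and 0.28 ± 0.22. Rplp0 was also among the 5 genes whose probe sets had the highest mean signal, with Rps29, Rpl4, Rps2 and Rps3a1. None of the 5 passed in either genotype, and their log2 changes ranged from -0.26 to 0.34 in mutant muscle and from -0.13 to 0.29 in control muscle.

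Of the 5 tested paralogs Rpl3l, Rps27l, Rpl22l1, Rpl7l1 and Rps4l, only Rpl3l passed by its brightest probe set in either genotype. Rps27l, a paralog of Rps27 and a p53 target, gave 51640, 53771 and 52738 signal units in denervated mutant muscle, against 26618 and 40938 in innervated mutant muscle. It gave 41317, 47469 and 50129 in denervated control muscle, against 36544, 19338 and 38740 in innervated control muscle. Its groups did not overlap, and the log2 changes were 0.67 ± 0.26 (limma adjusted p = 0.0723) and 0.61 ± 0.23 (adjusted p = 0.0635). Its other probe sets passed in both genotypes, with changes of 0.81 and 0.81 in mutant and 0.67 and 0.70 in control muscle. Rps27 itself had dim, scattered signals: 1285, 627 and 605 in denervated mutant muscle against 524 and 644 in innervated mutant muscle, and 575, 919 and 473 in denervated control muscle against 585, 1601 and 1579 in innervated control muscle. Its arrays overlapped, and the changes of 0.43 ± 0.46 and -0.84 ± 0.41 did not pass.

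Rpl22l1, the paralog of Rpl22, had log2 changes of 0.43 ± 0.22 in mutant and 0.45 ± 0.19 in control muscle, both short of the threshold, beside the 0.62 and 0.53 of Rpl22. Rpl7l1 changed by 0.10 ± 0.16 and 0.16 ± 0.14, and Rpl7 by 0.10 ± 0.15 and 0.15 ± 0.13. Other probe sets of both genes passed: of Rpl7l1 in mutant muscle (0.65 ± 0.15) and of Rpl7 in control muscle (0.48 ± 0.13 and 0.73 ± 0.25). Rps4x, the X-linked small subunit gene, changed by 0.12 ± 0.16 and 0.23 ± 0.14, and its paralog Rps4l, above the array median on 9 of 11 arrays, by -0.04 ± 0.55 and -0.03 ± 0.49. Rpl39 gave 2513, 1573 and 2259 signal units in denervated mutant muscle, against 2618 and 4512 in innervated mutant muscle, and 2157, 2082 and 2500 in denervated control muscle, against 2423, 1879 and 3123 in innervated control muscle. Its mutant arrays did not overlap and its control arrays did, but neither change passed the test, at -0.72 ± 0.27 (limma adjusted p = 0.0692) and -0.11 ± 0.25 (adjusted p = 0.775).

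Probe sets of 1 gene often differed in the size of the change. The 46 genes had 93 tested probe sets, of which 22 rose and 1 fell in mutant muscle (23.7% higher, against 13.1% of all tested probe sets) and 27 rose and 1 fell in control muscle (29% higher, against 14.9%). With any tested probe set counted, 15 genes had a probe set called higher in mutant muscle and 19 in control muscle. No share of all genes was computed that way. Among 20 genes with several tested probe sets, the one with the highest mean signal had the smallest change of its gene in 13 in mutant and 12 in control muscle, and the largest in 0 and 2. Rpl13a shows the pattern, with 4 probe sets. At a mean signal of 7016 its log2 change was 1.40 ± 0.15 in mutant and 1.92 ± 0.14 in control muscle (limma adjusted p = 2.75e-05 and 4.98e-07). At 19324 it was 0.90 ± 0.24 and 1.23 ± 0.22, at 63622 it was 0.47 ± 0.20 and 0.51 ± 0.18, and at 94957 it was 0.40 ± 0.19 and 0.34 ± 0.17. Rps3 had the same order, with 0.97 ± 0.18 and 1.07 ± 0.16 at a mean of 4181 and 0.33 ± 0.18 and 0.32 ± 0.16 at 66409. Over classes of signal chosen after the data were seen, 59 probe sets over 40000 had median changes of 0.40 in mutant and 0.37 in control muscle, 20 between 2000 and 40000 had 0.78 and 0.69, and 14 up to 2000 had 0.42 and 0.41. All tested probe sets of these classes had medians of -0.20 and -0.19, 0.05 and 0.04, and -0.21 and -0.06. Called higher in mutant and control muscle were 7 and 12 of the 59, 13 and 11 of the 20, and 2 and 4 of the 14. Of all tested probe sets of these classes, 16% and 18.7%, 20.9% and 22.8%, and 6.39% and 8.07% were called higher.

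**Figure D4:**
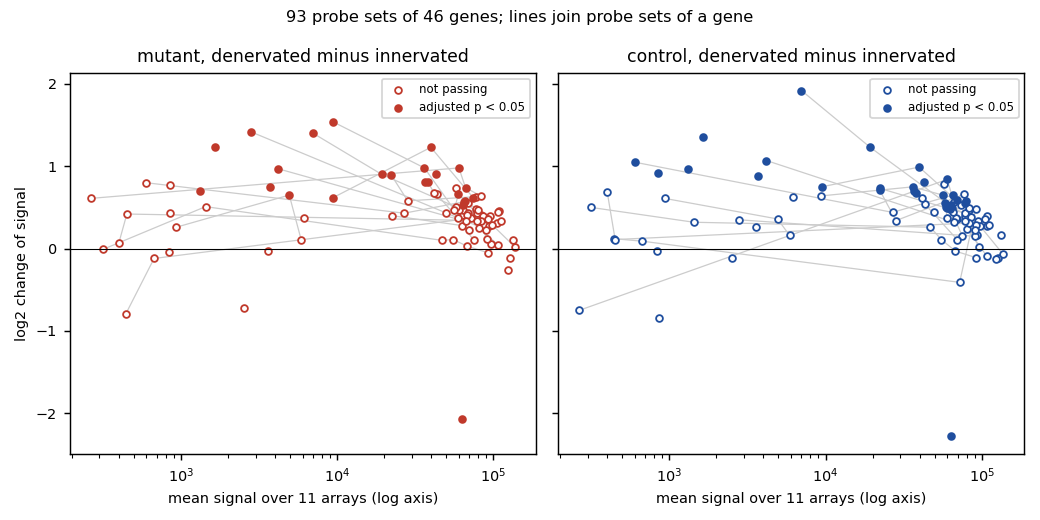
Log2 change of signal, denervated minus innervated, against the mean signal over 11 arrays (log axis) for 93 probe sets of 46 ribosomal protein genes in mutant (left) and control (right) muscle; lines join probe sets of 1 gene and filled points passed adjusted p under 0.05. Median changes were largest between mean signals of 2000 and 40000, at 0.78 in mutant and 0.69 in control muscle. They were 0.42 and 0.41 up to 2000, and 0.40 and 0.37 over 40000. Rpl13a had 1.92 at 7016 and 0.34 at 94957 in control muscle, and the point near -2 is Rpl3l.

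Between genotypes no ribosomal protein gene passed the test. In denervated muscle, mutant against control, 0 of 46 passed with limma, where 1.83% of all tested probe sets did, and 0 had an unadjusted p under 0.05, where 11.3% did. The median log2 difference was 0.10, against -0.01 over all tested probe sets, 38 of 46 were positive, and the smallest adjusted p was 0.615, of Rpl3l. With arrays centred on the hybridisation spikes the median turned to -0.28, beside -0.39 over all probe sets. Rpl3l differed by 0.22 ± 0.13, with a 95% interval of -0.07 to 0.51. The next smallest p-values belonged to Rps4l (0.76 ± 0.49), Rps14 (0.27 ± 0.22), Rps24 (0.21 ± 0.18) and Rps15 (0.30 ± 0.27), all short of the test; the differences of Rpl3l, Rps14, Rps24 and Rps15 turned negative with the arrays centred on the spikes. The 95% interval of a gene reached 0.41 to either side in the median gene. It is not adjusted for the number of tests, so differences larger than this could also fall short of the test. In 8 genes, among them Rplp2, Rps10 and Rps27l, the denervated mutant arrays were above the denervated control arrays without overlap, in 0 they were below, and 10.1% of all probe sets had each pattern.

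In innervated muscle, mutant against control, 0 of 46 passed and 0 had an unadjusted p under 0.05, where 0% of all tested probe sets passed and 3.94% had such a p. The median difference was 0.12, against 0.03 over all tested probe sets, and it turned to -0.10 without innervated control 2 and to -0.07 without innervated mutant 2. The smallest p-values were those of Rps27 (-0.96 ± 0.46), Rpl39 (0.50 ± 0.27), Rps4l (0.76 ± 0.55), Rpl27a (0.20 ± 0.18) and Rps6 (0.22 ± 0.19), all with limma adjusted p = 0.998. The interaction, which asks whether the denervation change itself differed between mutant and control, was also past the test in 0 of 46 genes, where 0.248% of probe sets passed, and 0 had an unadjusted p under 0.05, where 7.71% did. Its median was -0.02, against -0.04 over all tested probe sets. The smallest adjusted p was 0.679, of Rps27 (1.27 ± 0.61), whose signals were dim. The interaction of Rpl3l was 0.22 ± 0.20, with a 95% interval of -0.22 to 0.65, against denervation changes of about 2 log2 units. The 2 genotype comparisons and the interaction share arrays with the denervation comparisons, so their values are not independent of them.

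Genes for building ribosomes were also called after denervation. Of 68 tested genes for processing ribosomal RNA and assembling subunits, 43 rose and 0 fell in mutant muscle (median log2 change 0.74), and 54 rose and 0 fell in control muscle (median 0.82), where 16.7% and 18.1% of all genes were called higher. Eif6, which keeps the large subunit from joining the small one too early, averaged 32858 ± 4348 signal units in denervated mutant muscle (SD, n = 3) and 8210 ± 544 in innervated mutant muscle (n = 2). In denervated control muscle it averaged 28130 ± 2162 and in innervated control muscle 7888 ± 2003 (n = 3 each), and the log2 changes were 1.99 ± 0.20 and 1.86 ± 0.18 (limma adjusted p = 1.5e-05 and 6.91e-06). Bop1, of a complex that matures the large subunit, rose by 1.80 ± 0.14 in mutant and 1.81 ± 0.12 in control muscle on the log2 scale, and Tsr1, which matures the small subunit, by 1.56 ± 0.17 and 1.65 ± 0.15. Ebna1bp2, another large subunit assembly factor, rose by 1.34 ± 0.15 and 1.56 ± 0.13.

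RNA polymerase I, which transcribes the large ribosomal RNA precursor, moved the same way in part of its genes: 5 of 15 rose in mutant and 6 of 15 in control muscle and 0 fell, with medians of 0.58 and 0.49. Its catalytic subunit gene Polr1a rose by 1.19 ± 0.15 and 0.84 ± 0.14 on the log2 scale, and Taf1b, of its promoter-binding factor, by 1.06 ± 0.18 and 0.90 ± 0.16. Other genes whose mRNAs carry the terminal pyrimidine run rose in 7 of 10 cases in mutant and 5 of 10 in control muscle, and 0 fell. These were 70% and 50% of the genes, and those of RNA polymerase I above were 33.3% and 40%. Of all genes, 16.7% and 18.1% were called higher. Nap1l1, a histone chaperone, rose by 1.40 ± 0.15 and 1.47 ± 0.14, and Hnrnpa1, a splicing factor, by 1.12 ± 0.21 and 0.98 ± 0.19. Rpsa, a small subunit protein outside the naming pattern, rose by 0.54 in mutant and 0.58 in control muscle, and Fau, which encodes a fusion with the small subunit protein eS30, changed by 0.65 and 0.42 without passing.

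Translation factor genes were called in both directions, but the shares called lower were below those of all genes. Of 9 elongation factor genes 3 rose (33.3%) and 1 fell (11.1%) in each genotype. In mutant and control muscle, 16.7% and 18.1% of all genes were called higher, and 13.9% and 16.4% were called lower. The gene that fell was Eef1a2, the form of eEF1A typical of adult muscle and neurons, with averages of 72531 ± 5625 in denervated mutant and 122996 ± 13373 in innervated mutant muscle, and 74842 ± 11216 in denervated control and 127625 ± 6855 in innervated control muscle. Its log2 changes were -0.76 ± 0.15 and -0.78 ± 0.13 (limma adjusted p = 0.00216 and 0.000644). Eef1a1, the form of most other tissues, rose by 0.58 ± 0.13 and 0.66 ± 0.12. Of 34 initiation factor genes 14 rose and 2 fell in mutant muscle, and 15 rose and 3 fell in control muscle. The shares called higher were 41.2% and 44.1%, where 16.7% and 18.1% of all genes were. The shares called lower were 5.88% and 8.82%, where 13.9% and 16.4% of all genes were. Eif4a1, an RNA helicase, rose by 1.34 ± 0.16 and 1.65 ± 0.14, while Eif4e, the cap-binding protein, had log2 changes of -1.07 ± 0.16 and -0.78 ± 0.14, both past the test.

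Among 11 genes that control ribosomal protein mRNA, 4 rose and 0 fell in mutant muscle and 5 rose and 1 fell in control muscle. The shares called higher were 36.4% and 45.5%, where 16.7% and 18.1% of all genes were. Myc, a transcription factor that acts on ribosome synthesis genes, rose by 2.33 ± 0.24 and 3.14 ± 0.21 on the log2 scale. Eif4ebp1, a repressor of cap-dependent initiation that mTORC1 inactivates, rose by 2.47 ± 0.25 and 2.10 ± 0.22, Mtor by 0.87 ± 0.14 and 1.31 ± 0.13, and Larp1 by 0.57 ± 0.13 and 0.48 ± 0.12. Between genotypes in denervated muscle, 3 of the 225 tested genes of the translation lists passed (1.33%), where 2.17% of all genes by their brightest probe set did, so the share was not above the background. Mtor averaged 10024 ± 672 in denervated mutant and 15882 ± 1062 in denervated control muscle (SD, n = 3 each; log2 difference -0.66, limma adjusted p = 0.0169). Rptor, the mTORC1 scaffold, averaged 3888 ± 279 and 5827 ± 298 (-0.58, adjusted p = 0.0362). Eef2k, the kinase that inhibits elongation factor eEF2, averaged 17106 ± 1212 and 9319 ± 2485 (0.91, adjusted p = 0.0230).

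The ribosomal proteins of mitochondria, which belong to a separate ribosome, had median changes near 0. Of 76 genes 6 rose and 10 fell in mutant muscle and 5 rose and 14 fell in control muscle, with medians of 0.00 and -0.03. The shares called higher were 7.89% and 6.58%, where 16.7% and 18.1% of all genes were, and the shares called lower were 13.2% and 18.4%, where 13.9% and 16.4% of all genes were. Mrpl18 had log2 changes of -0.93 ± 0.16 and -1.14 ± 0.15 and Mrpl42 of -0.89 ± 0.18 and -0.81 ± 0.16, while Mrps18b had 0.88 ± 0.17 and 0.84 ± 0.15, all past the test in both genotypes. The difference between the cytosolic and the mitochondrial genes was not itself tested.

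**Figure D5:**
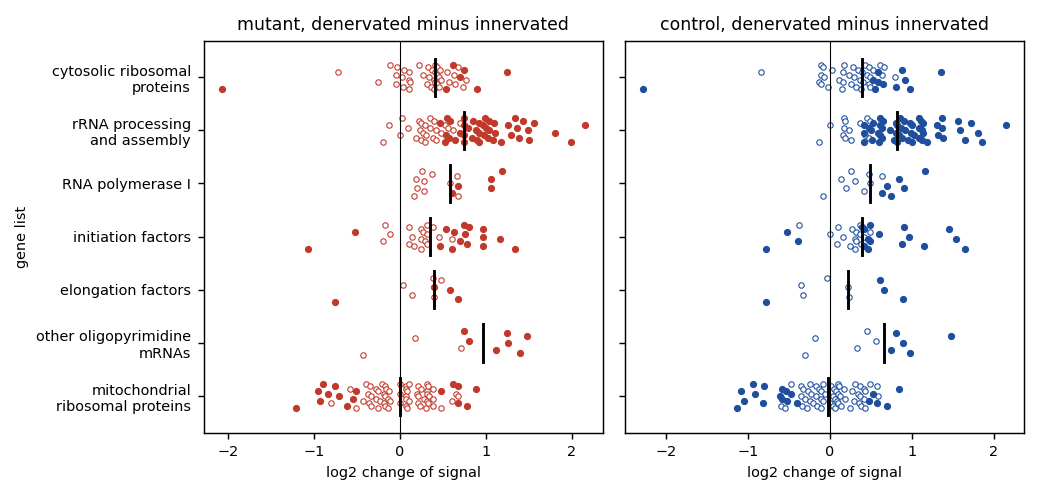
Log2 change of signal, denervated minus innervated, for each tested gene of 7 lists (points; filled, adjusted p under 0.05) in mutant (left) and control (right) muscle; the black line is the median of a list and the vertical spread of points has no meaning. The median of the cytosolic ribosomal proteins is 0.40 and 0.39, that of the processing and assembly factors 0.74 and 0.82, and that of the mitochondrial ribosomal proteins 0.00 and -0.03.

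Markers of other cells moved with denervation too. Of all genes, 16.7% were called higher and 13.9% lower in mutant muscle, and 18.1% higher and 16.4% lower in control muscle. Of 10 macrophage and leukocyte markers 8 rose in mutant and 5 in control muscle and 0 fell. Their summed signal was 107300 to 119755 in denervated mutant muscle, against 23811 to 26335 in innervated mutant muscle, and 85022 to 126844 in denervated control muscle, against 27455 to 38464 in innervated control muscle. All 5 tested markers of dividing cells rose in both genotypes, with sums of 5981 to 7696 in denervated mutant and 1309 to 1801 in innervated mutant muscle, and 14700 to 15945 in denervated control and 2101 to 2742 in innervated control muscle. Between genotypes in denervated muscle 1 of these 5 was called, lower in mutant muscle, where 2.17% of all genes were called. Their median log2 difference was 0.07, so the sums do not describe each marker. Satellite cell markers rose in 2 of 4 cases in mutant and 1 of 4 in control muscle. Endothelial markers fell in 2 of 6 cases in mutant and 5 of 6 in control muscle, Schwann cell markers in 1 of 3 in each, and fibroblast markers in 1 of 6 and 0 of 6. The lymphocyte markers Cd3e and Cd79a did not pass the filter, and of the erythroid markers only Alas2 was tested, with changes of -0.80 and -0.47 that did not pass. The hybridisation spikes also differed, with mean log2 signals of 13.389 to 13.741 in denervated mutant, 14.032 to 14.041 in innervated mutant, 13.15 to 13.227 in denervated control and 13.834 to 14.3 in innervated control muscle. The part of these cells and of the spikes in the changes of the ribosomal protein genes was not tested.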

How the data were processed

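The deposited table held a linear signal intensity for each probe set and array. The deposited intensity values had a 2% trimmed mean of 2500 on all 11 arrays, so the authors had scaled them; which software was used is not stated in the labels or headers. Groups came from the sample titles. The annotation listed 35890 probe sets, 34958 of them with 1 symbol, 932 with several and 9211 not listed.

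Signals were used as log2(signal + 16) without further normalization. Probe sets above their array's median on at least 2 arrays were tested, without 64 control probe sets, which left 26170, or 12191 genes by the brightest probe set. A mean per group was fitted over all 11 arrays with limma 3.58.1 in R 4.3.3 (eBayes with trend), with Benjamini-Hochberg adjustment over all tested probe sets of a comparison and a threshold of 0.05. Errors of log2 changes are standard errors of the fit, and log2 changes of dim genes are understated by the added 16. The fit was also run on simulated data with independent noise for each probe set, which does not cover shifts that many genes share on an array. Named genes were the paralog pairs, the stalk genes, up to 10 rises and falls past the threshold (or the 5 smallest p-values), the 5 highest and lowest mean signals, genes below the filter, and up to 4 genes of each other list. The genes and lists were chosen with earlier results of these data known.

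Deviations from group means of denervated control arrays correlated with those of the equally numbered innervated control arrays at 0.11, 0.22 and 0.30. In mutant muscle the values were 0.03 and 0.05. The labels do not say that the numbers pair samples, so the main fit had no block and fits with the number as a block were run as alternatives. Promoter sequences came from a RefSeq table of GRCm38.p6.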

Additional observations from a re-analysis of the deposited data

How the results depend on the processing

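The number of ribosomal protein genes called after denervation depended on the processing, and their direction as a group did not. In mutant muscle 7 genes were called; this became 28 with quantile normalization, 29 with centring on the spikes, 19 with only the arrays of the comparison in the fit (58.7%, 60.9% and 39.1% called higher, against 17.6%, 32.6% and 19.7% of all genes in the same fits), 14 with the dimmest tested probe set of each gene, and 4 with no filter, with eBayes without trend or with the 3'-to-5' ratio as a covariate. Quantile normalization moved the calls over all probe sets little, to 6825 against 6894, while it moved those of the members. With no filter 6.25% of the members were called higher, against 10% of all genes, and without trend 6.52%, against 14.9%. With the covariate 4.35% were called higher, against 15.7%. With the dimmest probe set 13 of 46 rose, and no share of all genes was computed that way. Leaving out 1 array gave 3 to 25. In control muscle 11 were called; this became 33 with quantile normalization, 44 with centring on the spikes, 19 with the replicate block on the 6 control arrays (69.6%, 93.5% and 39.1% called higher, against 18.2%, 60.5% and 18.8% of all genes), 17 with the 3'-to-5' covariate, 17 with the dimmest probe set, 7 without trend and 5 with only the arrays of the comparison. Without trend 13% of the members were called higher, against 16.6% of all genes. With only the arrays of the comparison 8.7% were, against 14.7%, and with the covariate 34.8%, against 19.8%. With the dimmest probe set 16 of 46 rose in control muscle, again without a share of all genes. Leaving out 1 array gave 5 to 17. The replicate block on all 11 arrays gave 5 in mutant and 11 in control muscle. In that fit 6.52% and 21.7% of the members were called higher, against 14.7% and 17.4% of all genes. The covariate and the dimmest probe set were chosen after the data were seen. Centring on the spikes moved the median of all probe sets to 0.38 in mutant and 0.81 in control muscle, and the genes' medians to 0.88 and 1.21, which is 0.50 and 0.41 relative to all. It moved the genes' medians to -0.28 between genotypes in denervated muscle and to -0.37 for the interaction. No gene was called between genotypes or for the interaction under any alternative run, and the interaction has no fit on the arrays of a single comparison. Between genotypes in denervated muscle, centring on the spikes turned Rpl3l to -0.16, Rps14 to -0.11, Rps24 to -0.17 and Rps15 to -0.08, and the interaction of Rpl3l to -0.14. Rps24 was -0.09 with unique probe sets only and -1.24 with its dimmest. The cause of these changes was not tested. Of the values of single named genes, 681 stayed on their side of the threshold, 70 lost it and 7 changed sign. With 2 or 3 arrays a group, the 95% interval of a difference between genotypes reached 0.41 to either side in the median gene in denervated and 0.46 in innervated muscle.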
